A study of Homo sapiens with 6 samples.

Results

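The osteoblast lineage genes grouped with RUNX2 are RUNX2, SP7, DLX5, MSX2, BMP2, ALPL, CDH11, SPARC, SPP1 and IBSP. These 10 were chosen by name, through the annotation of the U133 Plus 2.0 array, out of 19775 genes, and hold 25 of its 54613 non-control probe sets. The arrays are 6 in number and come from KHOS and U-2OS, established cell lines from human osteosarcoma, a bone tumour. For each line there was 1 array of cells given the miR-1 vector (pEP-miR-1), 1 of cells given the miR-null vector (pEP-miR-Null), and 1 control array. The vectors were transfected with Lipofectamine LTX and Plus Reagent for 48 hours, and each array held RNA pooled from 3 flasks. No vector is named for control cells, and the labels do not say whether they were treated with reagent. A difference between vector and control arrays therefore covers transfection, plasmid and insert together. Within a line there was 1 array a treatment, so no test was made within a line, and p-values measure only the spread between pooled arrays. In the fits with line and treatment as terms, that spread is the departure from equal treatment changes in both lines. It is not a spread of replicate pools, and a change that differed between the lines adds to it.

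RUNX2 is the runt-domain transcription factor without which osteoblasts do not form, and SP7 (osterix) acts downstream of it. BMP2, a secreted bone morphogenetic protein, signals through SMAD proteins to raise RUNX2 and the homeobox factors DLX5 and MSX2. Osteoblasts then express the phosphatase ALPL, the cadherin CDH11 and the matrix proteins SPARC (osteonectin), SPP1 (osteopontin) and IBSP (bone sialoprotein). Osteosarcoma is a tumour of cells that make bone matrix. The microRNA miR-1, best known from muscle, represses messages that pair with its seed.

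The mature sequence of miR-1 is shown because the 2 vectors are named for its presence or absence. It comes from the guide strand of the MIR1-1 hairpin at chr20:62554351-62554372 (+) in RefSeq's GRCh38.p14 table, with the seed, bases 2 to 8, in capitals.
hsa-miR-1-3p: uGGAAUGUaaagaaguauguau

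The promoters of RUNX2 and SPP1 are shown because these members passed the test of a line difference in the vector change, with the limits given below. RefSeq's table for GRCh38.p14 held a promoter for 6 of the 10 genes, with 9 start sites among them. SP7, DLX5, BMP2 and CDH11 had no entry. The 250 bases before each start were searched on both strands for TGTGGT, a core sequence bound by RUNX proteins, and for TAATTG, a homeobox core. The first was found in 2 of the 9 windows, and no match overlapped one of the other motif. Capitals mark the matches, which read ACCACA where they lie on the opposite strand. The upstream RUNX2 start at chr6:45328080-45328329 (+) had 2 matches, and the SPP1 start at chr4:87975464-87975713 (+) had 1, while the downstream RUNX2 start had none. Of 35116 windows of this length in the table, 3855, or 11%, held the RUNX sequence. The window of IBSP held 1 homeobox match, which 6.7% of all windows also hold. These matches describe letters only.
RUNX2, upstream start: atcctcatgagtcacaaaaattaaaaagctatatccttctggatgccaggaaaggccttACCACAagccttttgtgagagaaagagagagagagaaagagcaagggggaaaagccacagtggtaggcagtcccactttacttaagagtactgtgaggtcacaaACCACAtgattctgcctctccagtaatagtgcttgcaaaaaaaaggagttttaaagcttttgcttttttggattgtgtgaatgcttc
SPP1: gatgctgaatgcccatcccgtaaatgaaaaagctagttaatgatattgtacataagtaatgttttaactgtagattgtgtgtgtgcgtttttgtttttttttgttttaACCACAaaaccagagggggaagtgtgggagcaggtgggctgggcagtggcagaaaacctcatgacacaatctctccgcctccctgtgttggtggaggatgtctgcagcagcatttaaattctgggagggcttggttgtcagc

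The deposited values are log2 intensities. Each gene was represented by its probe set with the highest mean over the 6 arrays, and the test covered the 12958 genes with a mean of at least 5.11, the median over probe sets. Of the 10 genes 6 passed: RUNX2, MSX2, BMP2, CDH11, SPARC and SPP1. SP7, DLX5, ALPL and IBSP did not. In bulk RNA, fewer cells of a type and less RNA per cell cannot be told apart.

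A check of the labelled cell type found 7 of 9 mesenchymal markers above 5.11, led by VIM at 13.15 to 14.30. COL1A2 at 4.33 to 4.67 and COL3A1 at 3.84 to 4.09 lay below it. Other lists had 3 of 9 chondrocyte, 3 of 7 adipocyte, 2 of 7 skeletal muscle, 3 of 6 haematopoietic and 2 of 5 endothelial genes above it. The mean over the mesenchymal list was 7.58 to 8.0 on the 4 vector arrays, against 7.91 and 8.38 on the control arrays. Epithelial genes above 5.11 were 4 of 7, among them KRT18 and KRT8. Of the haematopoietic genes, PTPRC (CD45) read 3.53 to 3.75 on all arrays, while HBB read 7.07 to 7.40 and CD79A 5.63 to 6.21. Over probe sets, arrays of 1 line correlated at 0.978 or more, and arrays of different lines at 0.938 or less. Hybridization spike-ins were 0.27 higher on KHOS vector arrays and 0.68 higher on U-2OS vector arrays than on the control of the line, and 28S ribosomal RNA 1.07 and 1.01 higher. Between the lines, the spike-ins read 9.76 to 10.13 on the KHOS arrays and 10.81 to 11.65 on the U-2OS arrays. The interquartile range of all values was 3.24 to 3.36 in KHOS and 2.75 to 3.07 in U-2OS. The part of these readings in the line and vector results below was not tested.

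**Figure D1:**
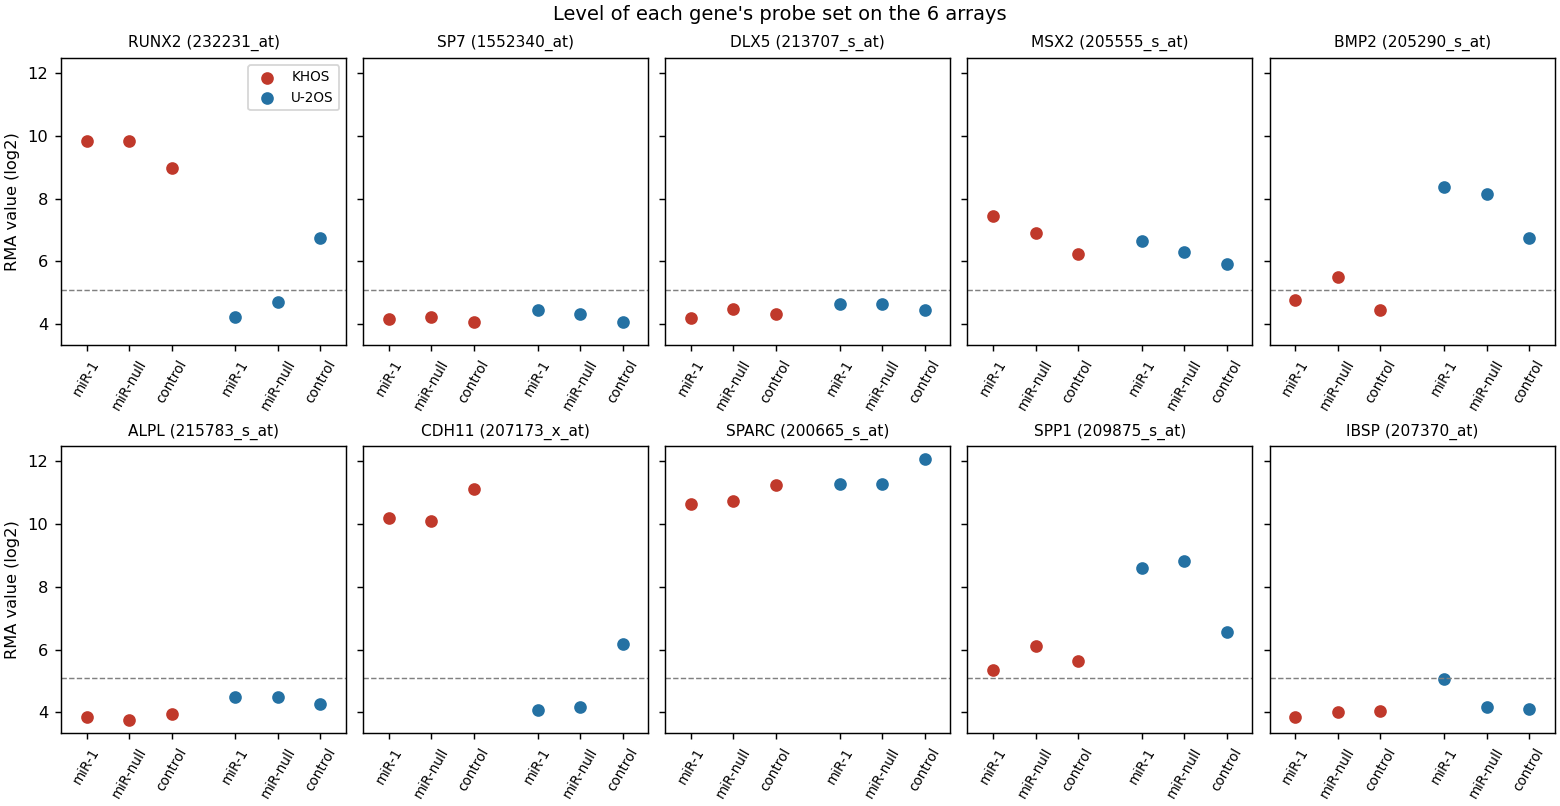
Log2 RMA value of the probe set that represents each of the 10 genes, with the miR-1, miR-null and control arrays of KHOS (red) to the left of those of U-2OS (blue); each point is 1 array and the dashed line is the level filter of 5.11. RUNX2 and CDH11 sat high in KHOS and BMP2 and SPP1 high in U-2OS, while SP7, DLX5, ALPL and IBSP had mean values below the line.

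Among the transcription factors, RUNX2 gave 9.83, 9.85 and 8.98 on the KHOS miR-1, miR-null and control arrays, against 4.23, 4.72 and 6.74 on the U-2OS arrays (232231_at). Every KHOS array was above every U-2OS array. The fitted KHOS minus U-2OS difference was 4.32 ± 0.60 (SE; limma adjusted p = 0.00164), about 20-fold higher in KHOS. The U-2OS miR-1 and miR-null values lay below the level filter, near the low end of the scale where RMA compresses differences, so the fold is not exact. The difference was not equal at each treatment, with gaps of 5.60 between the miR-1 arrays, 5.13 between the miR-null arrays and 2.24 between the control arrays, and without either control array the fitted difference was 5.36.

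The other 5 RUNX2 probe sets did not repeat this pattern. They ranged from 3.57 to 6.78, and their mean KHOS minus U-2OS differences ran from -0.60 to -0.10, all lower in KHOS. Probe set 221282_x_at read 5.82, 5.91 and 5.82 in KHOS, against 6.78, 6.31 and 6.27 in U-2OS, and fell by 0.60 in KHOS relative to U-2OS (adjusted p = 0.0266 over all probe sets). Where these probe sets lie on the RUNX2 transcripts was not analysed here, so the 20-fold difference is a value of 232231_at alone. Of the other 5, 4 had means below the level filter, and the fifth is an x_at probe set, which related transcripts can share.

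SP7 was near the floor of the scale, at 4.17, 4.22 and 4.06 on the KHOS arrays and 4.45, 4.33 and 4.08 on the U-2OS arrays. DLX5, a homeobox activator of osteoblast genes, gave 4.20, 4.5 and 4.31 in KHOS, against 4.66, 4.64 and 4.46 in U-2OS. The line ranges overlapped for both genes. RMA compresses differences this low on the scale.

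MSX2, a homeobox factor induced by BMP signals, gave 7.46, 6.91 and 6.25 on the KHOS miR-1, miR-null and control arrays, against 6.66, 6.29 and 5.93 on the U-2OS arrays (205555_s_at). The miR-1 array was the highest and the control the lowest in both lines, and the line ranges overlapped. The fitted line difference was 0.58 ± 0.16 (1.49-fold higher in KHOS; adjusted p = 0.0208). This call was lost when any one of the 4 vector arrays was left out (adjusted p = 0.112 to 0.137). A further probe set, 210319_x_at, read 7.10, 7.27 and 6.06 in KHOS, against 4.74, 4.92 and 5.34 in U-2OS, with no overlap. Its U-2OS vector arrays lay below the U-2OS control, the reverse of 205555_s_at, and 205556_at stayed between 3.5 and 3.75.

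The ligand BMP2 had the opposite line pattern to RUNX2. Its 205290_s_at values were 4.78, 5.52 and 4.46 on the KHOS miR-1, miR-null and control arrays, against 8.36, 8.16 and 6.73 on the U-2OS arrays. All U-2OS arrays lay above all KHOS arrays. The fitted difference was -2.83 ± 0.26, a 7.13-fold lower level in KHOS (adjusted p = 0.000307). The second BMP2 probe set, 205289_at, gave -2.46 (adjusted p = 7.71e-05 over all probe sets).

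ALPL, the tissue-nonspecific alkaline phosphatase that frees phosphate for mineral, was low in both lines. It gave 3.84, 3.76 and 3.96 in KHOS, against 4.49, 4.49 and 4.28 in U-2OS (215783_s_at). The KHOS arrays were all below the U-2OS arrays, and in a fit with no level filter the difference of -0.56 had an adjusted p of 0.0201. Its other probe set lay between 3.80 and 4.11.

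CDH11, the cadherin of osteoblasts and other mesenchymal cells, was the member with the widest line difference. Probe set 207173_x_at gave 10.18, 10.08 and 11.10 on the KHOS miR-1, miR-null and control arrays, against 4.09, 4.16 and 6.17 on the U-2OS arrays. The fitted difference was 5.65 ± 0.24, about 50.2-fold higher in KHOS (adjusted p = 1.68e-05). The U-2OS vector arrays read near the low end of the scale, so this fold is not exact either. Probe set 207173_x_at is also an x_at probe set, which related transcripts can share. The other 3 CDH11 probe sets were also higher in KHOS, by 3.45, 4.77 and 1.91 (adjusted p = 5.3e-05, 9.05e-05 and 0.00143 over all probe sets), so here all 4 probe sets ran the same way.

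SPARC, a collagen-binding glycoprotein abundant in bone, gave 10.64, 10.75 and 11.24 in KHOS, against 11.28, 11.28 and 12.07 in U-2OS (200665_s_at). The line ranges did not overlap, although the KHOS control was close to the U-2OS vector arrays. The fitted difference was -0.66 ± 0.14 (1.58-fold lower in KHOS; adjusted p = 0.0093). It missed the threshold without either miR-null array (adjusted p = 0.0513), and with the mean of both probe sets (-0.40, adjusted p = 0.0839). The second probe set, 212667_at, did not show a line difference past the threshold (-0.13, adjusted p = 0.698 over all probe sets).

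SPP1, an acidic phosphoprotein of bone matrix that binds integrins and CD44, gave 5.36, 6.13 and 5.65 in KHOS, against 8.60, 8.82 and 6.57 in U-2OS (209875_s_at). The fitted difference was -2.28 ± 0.41, a 4.87-fold lower level in KHOS (adjusted p = 0.00466). The gap was -3.24 between the miR-1 arrays, -2.69 between the miR-null arrays and -0.92 between the control arrays, and without either control array the fitted difference was -2.96. IBSP, which nucleates mineral, gave 3.85, 4.0 and 4.04 in KHOS, against 5.06, 4.17 and 4.12 in U-2OS, so that the U-2OS miR-1 array stood apart by 0.89 from the U-2OS miR-null array (207370_at). The other IBSP probe set lay between 3.18 and 3.49, and that array did not stand apart there.

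**Figure D2:**
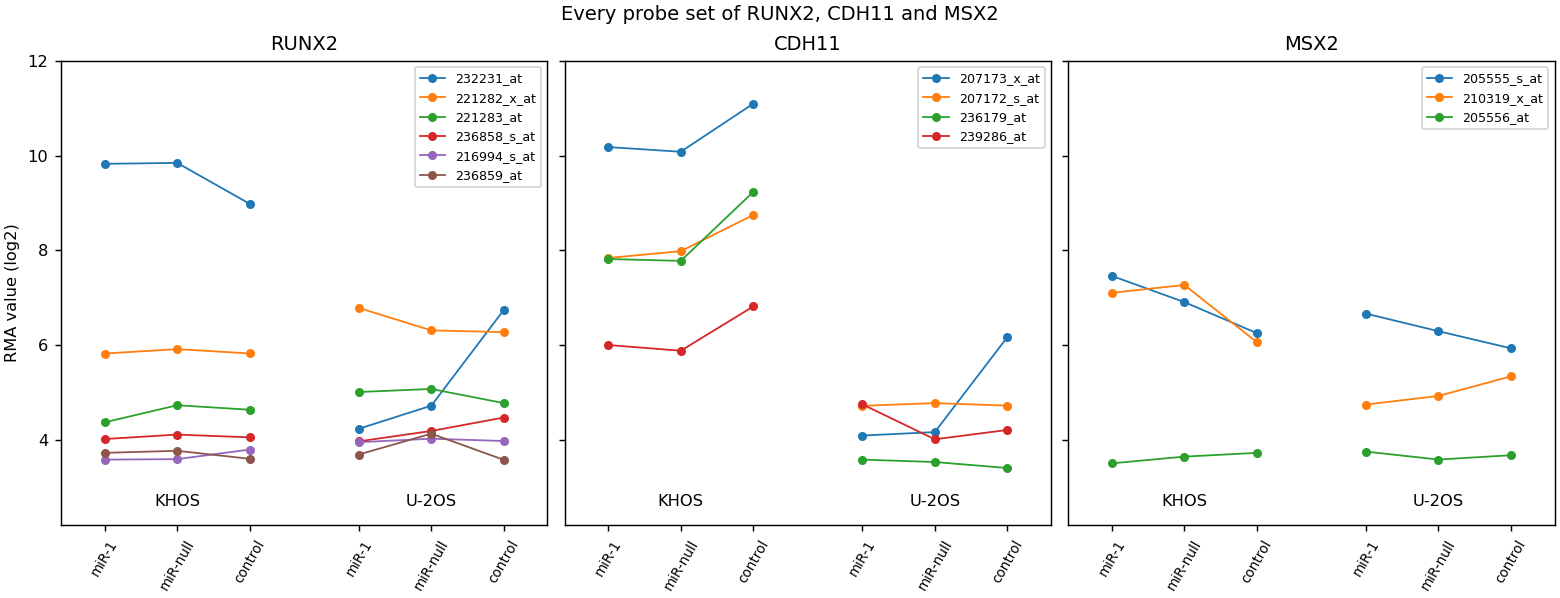
Log2 RMA value of every probe set of RUNX2, CDH11 and MSX2 on the miR-1, miR-null and control arrays of KHOS (left) and U-2OS (right); each line joins the 3 arrays of a probe set in a cell line. The 4 CDH11 probe sets were all higher in KHOS, while 1 of 6 RUNX2 probe sets was.

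All 6 tested members passed the line test, 3 higher in KHOS (RUNX2, MSX2 and CDH11) and 3 lower (BMP2, SPARC and SPP1). The level filter and the choice of probe set used the mean over both lines. CDH11 averaged 4.81 in U-2OS and BMP2 4.92 in KHOS, below the filter, so each was tested through its level in the other line. RUNX2, MSX2, SPARC and SPP1 averaged above the filter in each line. In U-2OS alone, 221282_x_at averaged 6.46 and 232231_at 5.23, so 232231_at represented RUNX2 through KHOS. Counts under a higher filter and by the mean of probe sets are given below. The lines differed widely in general: 54.8% of the 12958 genes passed, 3928 higher and 3175 lower in KHOS. After a further quantile normalization the split was 3094 higher and 4213 lower, and the median of all genes moved to -0.17 from 0.00. Under that setting the 6 members kept their directions and passed. For 5 of the 6, all but MSX2, the KHOS and U-2OS arrays did not overlap, against 64.8% of all genes tested. The study's design names a Mann-Whitney test, whose smallest exact p with 3 arrays against 3 is 0.1, so it passed none.

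The 5 lists of other osteoblast genes held 91 genes, of which 86 had a probe set with 1 symbol and 66 were tested. Of these, 34 were higher and 17 lower in KHOS past the threshold, or 77.3%, against 54.8% of all genes tested. By sign alone, 40 were higher and 26 lower, with a median difference of 0.63, against 0.00 for all genes tested. Of 17 tested genes in the list of RUNX partners and osteoblast transcription factors, 13 were higher and 3 lower past the threshold, and the list median was 1.24. TWIST1, a helix-loop-helix factor that binds RUNX2 and restrains it, was 6.46 higher in KHOS (adjusted p = 5.07e-06), against U-2OS values at the low end of the scale. The RUNX2 coactivator WWTR1 (TAZ) was 4.10 higher, its repressor HDAC4 4.05 higher and MEF2C 3.37 higher. LEF1, a nuclear partner of beta-catenin, was lower in KHOS, at -1.80, as were NFATC1 at -0.74 and ATF4 at -0.68. Genes known to restrain RUNX2 and genes known to assist it were both among those higher in KHOS.

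In the BMP list, 8 of 20 were higher and 7 lower in KHOS past the threshold, and the list median was 0.07. The secreted BMP antagonist GREM1 gave 12.53, 12.21 and 12.18 on the KHOS arrays, against 3.52, 3.80 and 3.54 on the U-2OS arrays, a difference of 8.69 (adjusted p = 1.77e-06) whose size is not exact, since the U-2OS values lie at the low end of the scale. Noggin (NOG), another antagonist, ran the other way, at -2.75. The receptor BMPR2 was 2.16 higher in KHOS, the common SMAD protein SMAD4 1.89 higher and the BMP target ID2 1.64 higher. ID4 at -3.33, the decoy receptor BAMBI at -2.34 and SMAD9 at -2.25 were lower in KHOS, as BMP2 was.

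Bone matrix and mineral genes had 6 higher and 3 lower of 13 past the threshold (list median 0.68). ENPP1, which makes the mineral inhibitor pyrophosphate, was 2.81 higher in KHOS, the microfibril protein FBN1 2.36, thrombospondin THBS1 1.35 and the phosphate carrier SLC20A1 1.26. GPNMB (osteoactivin) at -2.79, tenascin TNC at -2.28 and the type I collagen chain COL1A1 at -0.67 were lower in KHOS. Receptors and osteoclast coupling genes had 7 higher and 4 lower of 15 past the threshold (list median 0.09). PDGFRA at 3.31, CD44 at 1.85, the WNT co-receptor LRP5 at 1.64 and the integrin ITGAV at 1.04 were higher in KHOS, while VDR at -1.0, FGFR3 at -0.75, PDGFRB at -0.71 and ESR1 at -0.59 were lower. Of 7 late osteoblast and osteocyte genes, only MEPE was bright enough to test, and it did not pass (-0.38, adjusted p = 0.0568). Of the 51 list genes past the threshold, 39 still passed without either miR-null array. With the mean of a gene's probe sets 44 of the 51 could be tested, 34 passed and 1 turned sign.

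**Figure D3:**
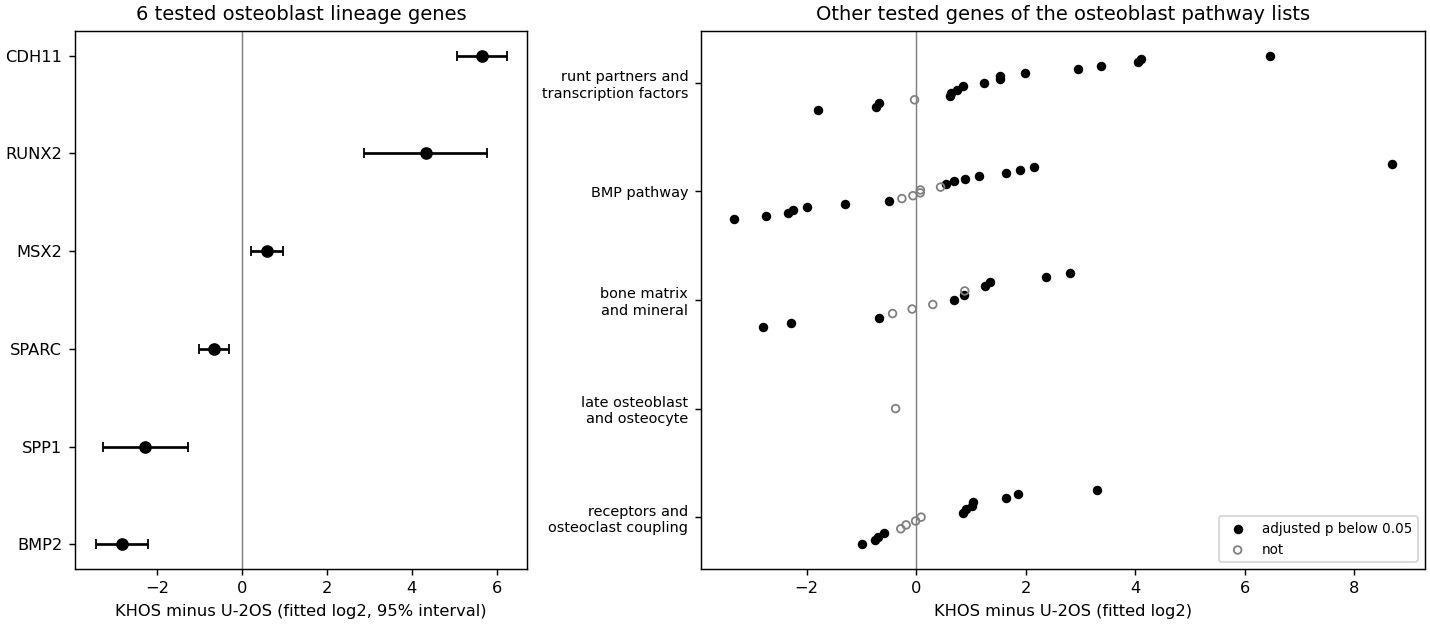
Fitted KHOS minus U-2OS difference (log2) of the 6 tested members with 95% intervals (left) and of each tested gene of the 5 osteoblast lists (right), with filled points past an adjusted p of 0.05. The members ran from -2.83 for BMP2 to 5.65 for CDH11, and the list of RUNX partners and transcription factors had 13 of its 17 tested genes higher in KHOS.

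The comparison of the miR-1 with the miR-null arrays asks what the microRNA itself changed, since both carry a vector. None of the 6 tested members passed, and neither did any other gene: limma called 0 of 12958 genes, or 0%, while 78 had an unadjusted p under 0.05. The exact Mann-Whitney test of the design, miR-1 arrays against the other 4, also called 0, and its smallest possible p is 0.133. MSX2 had the largest positive difference among the members, 0.46 ± 0.19 (adjusted p = 1), with 0.55 in KHOS and 0.37 in U-2OS. Another MSX2 probe set, 210319_x_at, gave -0.17 in KHOS and -0.18 in U-2OS, so the sign differed between these probe sets in both lines. RUNX2 differed by -0.25 ± 0.74, with -0.02 in KHOS and -0.49 in U-2OS. SPP1 differed by -0.49 ± 0.51, and BMP2 by -0.27 ± 0.31, with values of -0.74 in KHOS and 0.20 in U-2OS. The second BMP2 probe set, 205289_at, gave -0.35 in KHOS and -0.61 in U-2OS, so the U-2OS sign differed between the probe sets. CDH11 at 0.01 ± 0.30 and SPARC at -0.05 ± 0.18 lay nearest 0. Their 95% intervals, -0.71 to 0.73 and -0.48 to 0.37, bound what these arrays could show.

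None of the 66 tested list genes passed between miR-1 and miR-null arrays either, and their median was -0.03, against -0.04 for all genes. The largest differences in each list were RUNX3 0.19 and WWTR1 -0.39, ID2 0.62 and the inhibitory SMAD6 -0.52, BGN 0.18 and the collagen cross-linker LOX -0.54, and ITGB3 0.12 and PDGFRB -0.39. MEPE differed by -0.30. All of these had an adjusted p of 1.

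The miR-null minus control comparison asks what transfection with the miR-null vector changed. No member passed, and limma called 0 of 12958 genes, or 0%, with 1263 at an unadjusted p under 0.05. CDH11 had the largest negative difference among the members, -1.51 ± 0.30 (adjusted p = 0.362), and SPP1 and BMP2 the largest positive ones, 1.36 ± 0.51 and 1.24 ± 0.31 (adjusted p = 0.477 and 0.367). SPARC differed by -0.64 ± 0.18, MSX2 by 0.51 ± 0.19 and RUNX2 by -0.58 ± 0.74. With a control array left out, the difference rested on the control of the other line alone, and the spread of control cultures did not enter. Only sizes are given for these fits. RUNX2 ran in opposite directions, at -2.14 without the KHOS control and 0.98 without the U-2OS control. The other tested members kept their signs. CDH11 gave -2.05 and -0.97 in the same order, SPP1 2.39 and 0.34, and BMP2 1.66 and 0.82. Among the 66 list genes 0 passed, with a median of -0.06 against -0.02 for all genes. Their extremes were SNAI2 0.83 and WWTR1 -0.78, BAMBI 1.46 and BMPR2 -0.93, TNC 0.68 and THBS1 -1.53, and CSF1 0.43 and PDGFRA -0.72, with MEPE at 0.28.

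Taking the miR-1 and miR-null arrays together gave 4 vector arrays against 2 control arrays. This contrast shares its control and miR-null arrays with the one before and was chosen in an earlier analysis after its results were seen. None of the 6 members passed, where 0.478% of all genes did (62, of which 46 were higher and 16 lower; 2587 had an unadjusted p under 0.05). CDH11 came nearest, at -1.51 ± 0.23 (adjusted p = 0.0515), followed by SPARC at -0.67 ± 0.13 (0.0635) and BMP2 at 1.11 ± 0.26 (0.0869). MSX2 gave 0.74 ± 0.21 (adjusted p = 0.119), SPP1 1.12 ± 0.43 (0.214) and RUNX2 -0.71 ± 0.60 (0.548). With a control array left out this contrast also rested on a single control array, so only sizes are given. RUNX2 was -2.27 without the KHOS control and 0.86 without the U-2OS control, and CDH11 was -2.05 and -0.97.

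Array by array, the members sorted into 3 patterns. CDH11 and SPARC were below the control of the line on all 4 vector arrays by 1.2-fold or more, the cut-off of the study's design, a pattern held by 6.2% of all genes. CDH11 differed from control by -0.92 and -1.02 on the KHOS miR-1 and miR-null arrays and by -2.08 and -2.01 on the U-2OS ones. SPARC differed by -0.59 and -0.49 in KHOS and by -0.79 on both U-2OS arrays, and its second probe set, 212667_at, by -2.11 to -0.89. MSX2 and BMP2 were above control on all 4, as were 3.21% of all genes. MSX2 lay 1.21 and 0.66 above in KHOS and 0.73 and 0.36 above in U-2OS (205555_s_at). Its probe set 210319_x_at differed from control by 1.04 and 1.21 in KHOS, but by -0.60 and -0.42 in U-2OS. BMP2 lay 0.32 and 1.06 above in KHOS, and in U-2OS 1.63 and 1.42 above, and 205289_at was above control on the same 4 arrays. RUNX2 was above control in KHOS and below it in U-2OS, a split that 3.13% of all genes showed. SPP1 fitted none of these patterns: its KHOS arrays differed from control by -0.29 and 0.48, and its U-2OS arrays by 2.03 and 2.25.

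The probe sets of CDH11 gave different readings in U-2OS. All 4 were lower on the KHOS vector arrays, by -1.46 to -0.77, yet in U-2OS only 207173_x_at was lower than control by 1.2-fold or more on both. The U-2OS control read 6.17 on that probe set, and 4.72, 3.40 and 4.21 on the other 3. Of these, 207172_s_at read 4.72 and 4.77 on the U-2OS miR-1 and miR-null arrays, where 207173_x_at read 4.09 and 4.16. Why the probe sets differed was not tested.

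**Figure D4:**
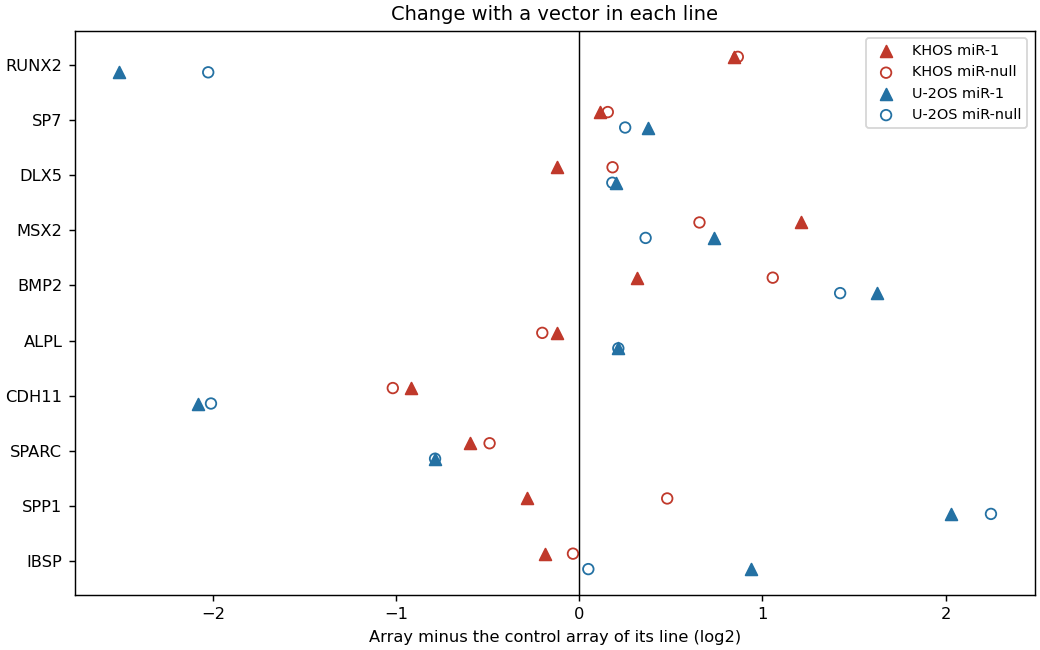
Difference in log2 RMA value between each vector array and the control array of its line for the 10 genes, with miR-1 arrays as triangles, miR-null arrays as open circles, KHOS in red and U-2OS in blue. CDH11 and SPARC lay left of 0 on all 4 arrays, MSX2 and BMP2 right of 0, and RUNX2 right of 0 in KHOS and left in U-2OS; miR-1 and miR-null symbols of a line mostly lay close together.

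Of the 66 list genes, 1 passed between vector and control arrays, with a rise: BAMBI, whose truncated receptor dampens BMP and TGF-beta signals. By sign alone, 31 of the 66 were higher with a vector and 35 lower. BAMBI read 6.72 and 6.25 on the KHOS miR-1 and miR-null arrays, against 4.8 on the KHOS control, and 8.75 and 8.75 on those of U-2OS, against 7.27 on the U-2OS control. The fitted change was 1.58 ± 0.17 (2.99-fold; adjusted p = 0.017). It missed the threshold without the KHOS miR-null, KHOS miR-1 or U-2OS miR-null array (adjusted p = 0.0754, 0.0671 and 0.119). The list median was -0.07, against -0.03 for all genes. Other extremes were SNAI2 0.89 (0.0624), WWTR1 -0.97 (0.13), TNC 0.55 (0.295), THBS1 -1.45 (0.0975), CSF1 0.45 (0.265), PDGFRA -0.77 (0.072) and MEPE 0.13 (0.675), with adjusted p in brackets.

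Whether the vector change differed between the lines was tested as KHOS change minus U-2OS change. Its spread came from the miR-1 and miR-null arrays of a line, so the spread of control cultures did not enter. RUNX2 and SPP1 passed, 2 of 6 members, against 2.28% of all genes (259 higher and 37 lower, or 13 and 6 after a further quantile normalization). For RUNX2 the vector arrays averaged 0.86 above control in KHOS and -2.27 in U-2OS, a difference of 3.13 ± 0.31 (adjusted p = 0.00623). The difference belonged to 232231_at, since the other RUNX2 probe sets gave -0.35 to 0.41 and none passed. It missed the threshold without the KHOS miR-null array (3.12, adjusted p = 0.0805) or the KHOS miR-1 array (3.14, adjusted p = 0.0655).

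For SPP1 the vector arrays averaged 0.10 above control in KHOS and 2.14 above in U-2OS, a difference of -2.04 ± 0.41 (adjusted p = 0.0466). It missed the threshold after quantile normalization (adjusted p = 0.0921) and without the KHOS miR-null (0.0805) or KHOS miR-1 array (0.143). It also missed it in the fit over all probe sets (0.0702) and with the mean of the SPP1 probe sets (-1.10, adjusted p = 0.0933). CDH11 gave 1.08 ± 0.23 (adjusted p = 0.0562) on 207173_x_at, yet -1.59 on 236179_at (adjusted p = 0.031 over all probe sets). The remaining CDH11 probe sets were negative too, at -0.86 on 207172_s_at and -1.05 on 239286_at (adjusted p = 0.155 and 0.263 over all probe sets). Probe set 236179_at read 3.58, 3.53 and 3.40 on the U-2OS miR-1, miR-null and control arrays, so low already on the control that a fall in U-2OS could not have been seen there. MSX2 gave 0.39 ± 0.36 on 205555_s_at, while 210319_x_at passed at 1.63 (adjusted p = 0.0378 over all probe sets). BMP2 gave -0.84 ± 0.40 and SPARC 0.25 ± 0.23, with adjusted p of 0.256 and 0.56.

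In the lists 4 genes passed the same test, all with a positive sign: fibronectin FN1 at 2.28, BMPR2 at 1.82, THBS1 at 1.71 and MEF2C at 1.49 (adjusted p = 0.0119, 0.0237, 0.0491 and 0.0278). MEF2C read 8.13 and 8.29 on the KHOS vector arrays, against 7.46 on the KHOS control, and 4.44 and 4.25 in U-2OS, against 5.08. FN1 read 10.31 and 10.70 in KHOS, against 9.73, and 8.91 and 8.81 in U-2OS, against 10.36. BMPR2 read 8.72 and 8.65 on the KHOS vector arrays, against 8.79, and 5.71 and 6.14 in U-2OS, against 7.85. THBS1, low on the vector arrays of both lines, read 11.71 and 11.14 in KHOS, against 12.02, and 9.38 and 9.64 in U-2OS, against 11.81. None of the 4 passed after quantile normalization, without the KHOS miR-1 array or without the KHOS miR-null array, and THBS1 also missed the threshold without the U-2OS miR-1 array (adjusted p = 0.0524), with no level filter (0.0501) and over all probe sets (0.0765). With the mean of a gene's probe sets BMPR2 gave 0.75 (adjusted p = 0.0909), MEF2C 0.69 (0.13) and THBS1 1.01 (0.0828), and FN1 alone of the 4 passed. The list median was 0.34, against 0.14 for all genes. LRP6 at 1.21 (adjusted p = 0.0507), PDGFRB at -0.64 (0.307) and MEPE at -0.09 (0.875) did not pass.

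The U-2OS control array read higher than the U-2OS vector arrays for RUNX2 232231_at and CDH11 207173_x_at, both high in KHOS. TWIST1 and GREM1, also high in KHOS, were so low on the U-2OS control that a fall could not have been seen. TWIST1 gave 3.37, 4.05 and 3.30 on the U-2OS miR-1, miR-null and control arrays, and GREM1 3.52, 3.80 and 3.54. Of other genes high in KHOS, WWTR1 was lower on the U-2OS vector arrays, at 7.58 and 7.99 against 9.36. HEY1, of the same list, was higher there, at 8.28 and 8.18 against 7.18. The genes whose 6 values, each minus the gene's own mean, lay closest to those of RUNX2 were PDLIM1, SAMHD1, NEDD4, NRP1 and AHRR, with root mean square differences of 0.32, 0.40, 0.41, 0.45 and 0.48. All 5 were lower on the U-2OS vector arrays than on the U-2OS control, for example PDLIM1 at 5.99 and 6.29 against 8.75. For CDH11 they were CARD8, CLMP, NRP1, PEG10 and TNFRSF19, at 0.42, 0.52, 0.54, 0.65 and 0.67. These likenesses are descriptions over 6 arrays of 2 lines, in which the line difference is the main shared component.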

How the data were processed

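RMA in Qlucore gave the authors' deposited log2 values, per the design text and, for RMA, the submitters' processing notes. The values of 6 arrays were used as given, with 0 missing and 0 columns unmapped, and 62 control probe sets were left out. A probe annotation gave 41091 probe sets 1 symbol, 1801 several and 11721 none. Probe sets with several symbols gave no gene name, which left out BGLAP (osteocalcin) among others.

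The tests used limma 3.58.1 under R 4.3.3, with lmFit and eBayes and a Benjamini-Hochberg threshold of 0.05 over all genes tested. Treatment and line were terms of the fit, which left 2 residual degrees of freedom. The vector contrast put miR-1 and miR-null arrays together (3 residual degrees of freedom). Values over all probe sets came from the same fits on 54613 probe sets. Same-numbered arrays are of the same cell line, so the line term is the pairing. The fits were tested on simulated data. Figures were drawn with matplotlib 3.10.9 in Python 3.11.15.

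The members, lists and contrasts were chosen with earlier results of these data known. The genes named are all members, the genes past the threshold in each list (at most 4 each way, largest first) or else the largest each way, and the 5 genes most like RUNX2 and CDH11. The alternatives were a further quantile normalization, other level filters, the mean of a gene's probe sets, all probe sets, a prior variance that follows the mean, no line or treatment term, the exact Mann-Whitney test, and each array left out. The number of arrays limits the precision, and pooling removes the spread between flasks.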

Additional observations from a re-analysis of the deposited data

Results flagged for a closer look

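The vector change of RUNX2 differed between the lines by an interaction test, with 3.13 (KHOS change 0.86, U-2OS change -2.27; limma adjusted p = 0.00623). That of SPP1 did as well, with -2.04 (KHOS change 0.10, U-2OS change 2.14; limma adjusted p = 0.0466).

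ALPL and IBSP, both below the level filter, were flagged for opposite signs in the lines. Every KHOS vector array lay below its control and every U-2OS vector array above it. For IBSP the miR-null changes were as small as -0.03 in KHOS and 0.05 in U-2OS. The share of all genes with this sign pattern was not counted. The second probe sets did not show it: on the KHOS miR-null array, ALPL 1557924_s_at lay 0.04 above control and IBSP 236028_at 0.10 above. For ALPL the KHOS minus U-2OS difference in the vector change was -0.37, with -0.16 in KHOS and 0.21 in U-2OS. For IBSP it was -0.60, with -0.11 in KHOS and 0.49 in U-2OS, of which the U-2OS miR-1 array gave 0.94 and the U-2OS miR-null array 0.05. These differences were not tested with the genes past the filter. In a fit with no level filter their adjusted p was 0.456 for ALPL and 0.514 for IBSP.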

How the results depend on the processing

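Of the members, 6 passed between KHOS and U-2OS. That count was 3 under the 75th percentile filter, where BMP2, MSX2 and SPP1 were not tested, 4 by the mean of probe sets, where RUNX2 fell below the filter and SPARC was lost, and 0 by the exact Mann-Whitney test, and with arrays left out it was 4 to 6. With no replicate block (no treatment term) MSX2 and SPARC were lost (adjusted p = 0.15 and 0.0584). The treatment fits held the line as replicate block, and with no replicate block 0 members passed in each treatment comparison and BAMBI was lost (adjusted p = 1). No alternative gave a call for miR-1 minus miR-null. With vector minus control, 0 members passed, against 1 with no filter (CDH11, adjusted p = 0.0487), 2 under the 75th percentile filter (CDH11, SPARC), 1 by the mean of probe sets (SPARC) and 3 when the prior variance followed the mean (BMP2, CDH11, SPARC). With arrays left out the count was 0 to 5, and likewise 0 to 5 for miR-null minus control. For the line difference in vector change 2 passed, against 1 after quantile normalization, 0 by the mean of probe sets, where RUNX2 fell below the filter, and 0 to 3 with arrays left out. Leaving out a control array made that difference inestimable. CDH11's value there turned to -0.61 by the mean of probe sets, from 1.08, and the cause was not tested. With arrays left out, the following values changed sign. In miR-1 minus miR-null, RUNX2 ran from -1.21 to 0.70, SPARC from -0.15 to 0.046, BMP2 from -0.83 to 0.29, CDH11 from -0.32 to 0.35 and SPP1 from -1.21 to 0.23. RUNX2 ran from -2.14 to 0.98 in miR-null minus control and from -2.27 to 0.86 in vector minus control. With an array left out, calls over all genes ranged from 4471 to 8765 for the lines (7103 as reported) and from 6 to 1531 for the line difference (296). For vector minus control they ranged from 0 to 21 with a vector array left out (62). For miR-null minus control they were 13 with either miR-1 array left out (0).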
